A study of Mus musculus with 32 samples.

Results

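The libraries described here are the 4 whole-marrow libraries of DTRADQ mice and the 4 of control mice taken after 3 days of daily diphtheria toxin (DT), 8 of 32 libraries in the series, chosen by their titles. DTRADQ mice carry an inducible diphtheria toxin receptor, labelled DTR flox, together with an adiponectin Cre transgene, labelled ADQ Cre+. Their littermate controls carry DTR flox without Cre, so receptor allele, strain (C57BL/6) and toxin are shared by both groups and the Cre transgene is what separates them. Each mouse was 2 months old and received 100 ng of DT by intraperitoneal injection each day. RNA was taken from whole femoral marrow, with 4 libraries per group, and reads were counted per gene. The labels do not say whether the libraries of a group came from separate mice, so p-values measure only the spread between libraries, which may be technical. The adiponectin promoter decides which cells become sensitive to the toxin, and in whole marrow a loss of cells and a loss of RNA per cell cannot be told apart in any result below.

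In marrow, adiponectin-Cre is active in fat cells and in the far more numerous reticular stromal cells of the same lineage. These cells form a network around the sinusoids and secrete CXCL12 and stem cell factor, which hold blood stem cells and B cell precursors in place. Diphtheria toxin stops protein synthesis in cells that carry its receptor, and mouse cells otherwise lack a receptor that binds it well. Red cells mature in marrow around macrophages, importing iron through the transferrin receptor and building heme in a chain of enzymes before the nucleus is lost.

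The 3 marker genes separated the groups without overlap. Adipoq, which encodes the fat cell hormone adiponectin and marks the targeted lineage (ENSMUSG00000022878, chr16:23146536-23158028 in GRCm38), held 0.600, 0.332, 0.264 and 0.391 CPM (read counts scaled by TMM to a common library size) in DTRADQ libraries 1 to 4 and 37.7, 36.4, 32.1 and 54.3 CPM in control libraries 1 to 4. Every DTRADQ library was near the bottom of the scale and every control library far above it (log2 change −6.61, standard error (SE) 0.38, adjusted p = 2.27e-14). Tagln, which encodes the actin-binding protein transgelin of smooth muscle and activated fibroblasts (ENSMUSG00000032085, chr9:45929628-45936058 in GRCm38), held 53.9, 53.95, 44.02 and 80.6 CPM in DTRADQ and 0.640, 1.44, 0.903 and 1.02 CPM in controls. It was high in every DTRADQ library, highest in library 4, and near 1 CPM in the controls (5.84, SE 0.31, adjusted p = 3.68e-15). Tfrc, which encodes the transferrin receptor (ENSMUSG00000022797, chr16:32608920-32632794 in GRCm38), held 121, 90.02, 109 and 80.4 CPM in DTRADQ and 406, 371, 425 and 553 CPM in controls, so that the highest DTRADQ library lay far below the lowest control (−2.13, SE 0.27, adjusted p = 6.11e-07). Adjusted p-values throughout come from edgeR's quasi-likelihood test with Benjamini-Hochberg adjustment over all genes tested, and a gene is said to have risen or fallen where this value is below 0.05.

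**Figure D1:**
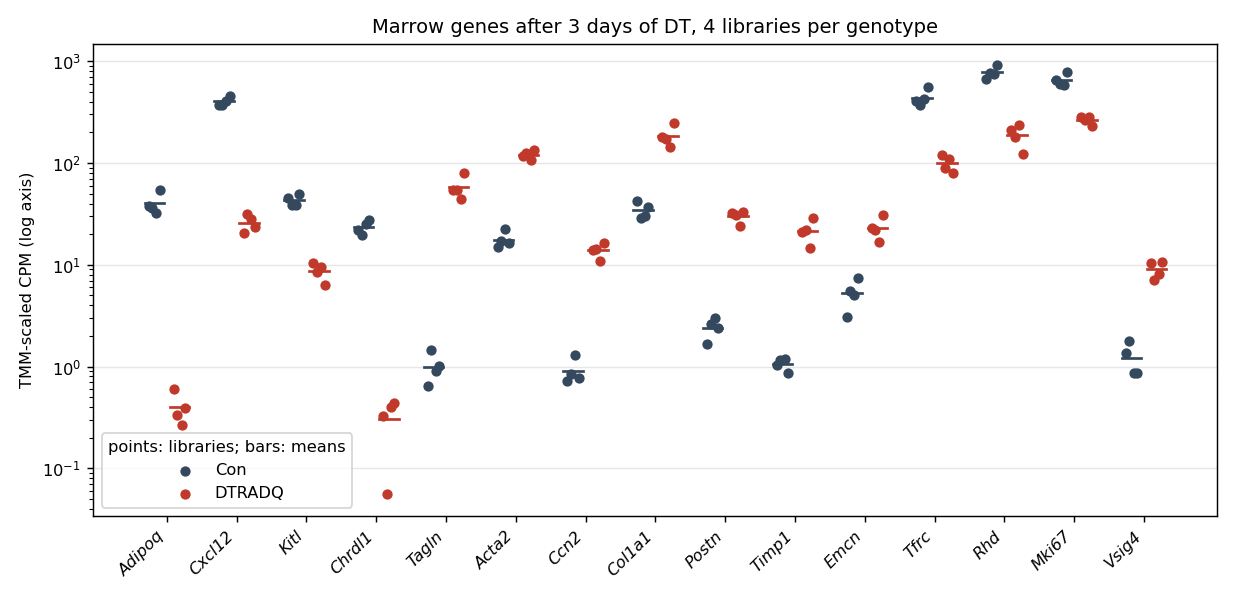
TMM-scaled CPM on a log axis of 15 genes in the 4 control and 4 DTRADQ libraries after 3 days of DT, with a point for each library and a bar for each group mean. The groups do not overlap in any of the 15 genes, with Adipoq at most 0.600 CPM in DTRADQ and Tagln at least 44.0 CPM.

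Of 14527 genes tested, 1279 (8.8%) were higher and 2051 (14.1%) lower in DTRADQ, and 5066 had an unadjusted p under 0.05. Without control library 4 the higher genes numbered 754. These shares are the background for the counts that follow, as is the median log2 change over all genes of −0.018. The control libraries were the deeper ones, with 21.05 to 22.93 M counts each against 15.74 to 19.85 M for DTRADQ. A larger share of each DTRADQ library went to its 10 leading genes (27.16% to 30.87%, controls 22.32% to 24.12%) and to globin genes (10.17% to 14.09%, controls 6.25% to 9.02%). Ribosomal protein genes took 1.04% to 1.1% and 1.47% to 1.81%, without overlap. All genes of the mitochondrial genome took 1.599% to 1.911% and 2.075% to 2.873%, also without overlap. These are shares of raw counts. The part of these shifts in the results was not tested beyond the alternatives in scaling given at the end. All 8 libraries are labelled with lane 8.

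**Figure D2:**
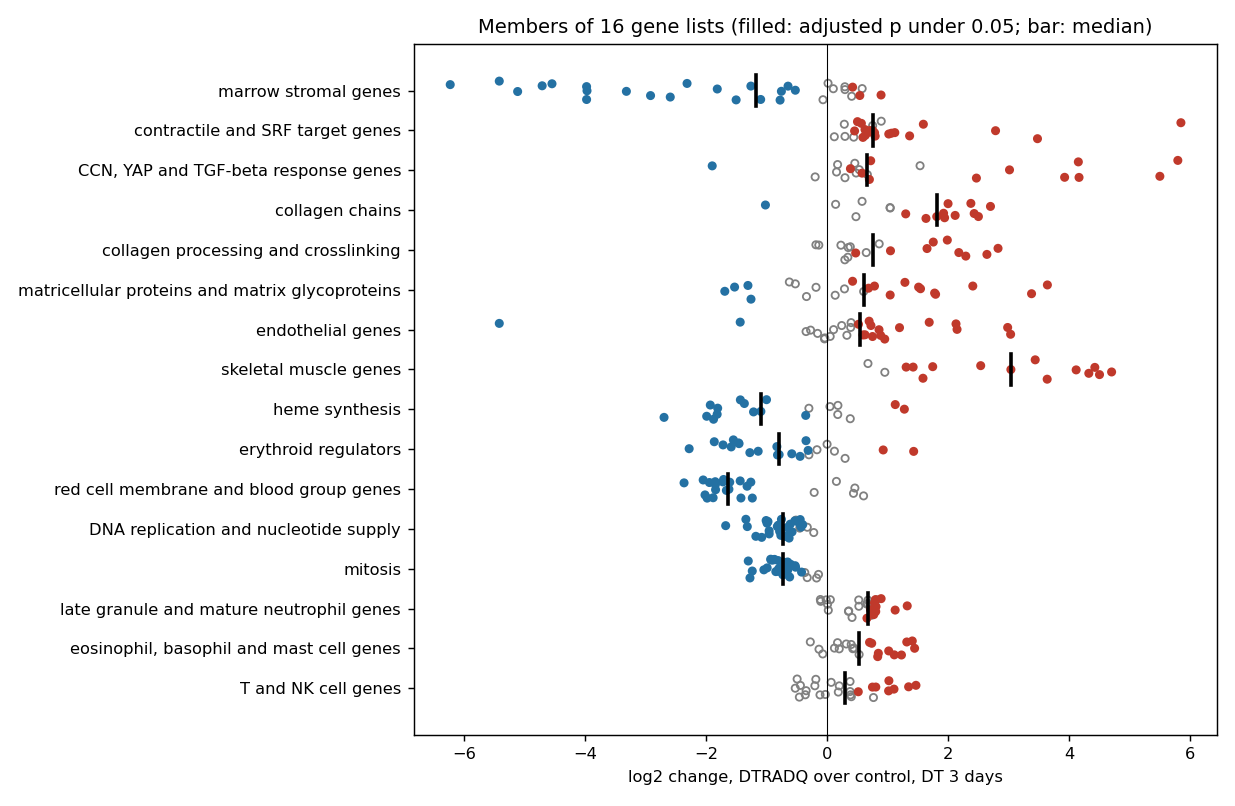
Log2 change of DTRADQ over control after 3 days of DT for the tested members of 16 gene lists, 1 point per gene, filled where adjusted p was below 0.05, with a bar at each list's median. The stromal and red cell lists lie mostly to the left and the contractile, collagen and muscle lists mostly to the right, with medians from −1.64 to 3.03.

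Genes of the reticular stroma were low after 3 days of DT. Of 30 marrow stromal genes 20 fell, 3 rose and 7 did not pass (median −1.18). Cxcl12, the chemokine that retains stem cells, held 20.3, 31.5, 27.96 and 23.3 CPM in DTRADQ and 372, 369, 411 and 459 CPM in controls, with no overlap. Igfbp5, a binding protein of insulin-like growth factors, fell from 66.4 ± 5.87 to 1.89 ± 0.444 CPM (−5.11, SE 0.23). The leptin receptor Lepr changed by −3.97 (SE 0.25), stem cell factor Kitl by −2.31 (SE 0.20) and Gas6, a ligand of TAM receptors, by −2.92 (SE 0.28). The transcription factors Ebf3 (−2.59, SE 0.42) and Foxc1 (−1.82, SE 0.34), which maintain reticular stromal identity, fell as well.

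Other stromal genes did not follow. Csf1, the growth factor of macrophages, held 13.6, 17.7, 15.8 and 20.02 CPM in DTRADQ and 8.41, 9.99, 9.71 and 8.10 CPM in controls, higher in every DTRADQ library (0.89, SE 0.19, adjusted p = 0.00079). Il34, the other ligand of the CSF1 receptor, fell from 7.04 ± 2.00 to 0.687 ± 0.246 CPM (−3.32, SE 0.41). Fstl1, a secreted follistatin relative, rose by 0.54 (SE 0.18, adjusted p = 0.0253). Pdgfrb was the third that rose (0.42, SE 0.15, adjusted p = 0.0436), with overlapping groups. Neither held when libraries were left out: Fstl1 had an adjusted p of 0.0524 to 0.0746 without DTRADQ library 4 or control library 1, 2 or 4, and Pdgfrb one of 0.0867 to 0.14 without DTRADQ library 2 or 4 or control library 1 or 4. Vcam1, an adhesion molecule of stromal cells and macrophages, was at 448 ± 79.8 against 366 ± 72.7 CPM and did not pass (0.29, adjusted p = 0.315), but was called higher with the skeletal muscle level of each library as a covariate (0.63, adjusted p = 0.0482).

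Fat cell genes split. Of 18 adipocyte genes tested 5 fell, 2 rose and 11 did not pass (median 0.11), and none rose without control library 4. Cfd, the fat cell protease adipsin, gave 0, 0, 0 and 1 reads in DTRADQ libraries 1 to 4 and 319, 361, 97 and 180 reads in the controls, so that controls exceeded DTRADQ by a factor of 810, with an exact 95% interval of 145 to 32000 that covers counting error only. Cebpa, a regulator of fat cells and of granulocyte precursors, fell from 8.49 ± 0.906 to 4.98 ± 0.110 CPM (−0.77, SE 0.23). Cd36, a fatty acid transporter also made by red cell precursors, endothelium and macrophages, fell by 1.10 on the log2 scale (SE 0.27) but was not called with the skeletal muscle level of each library as a covariate (adjusted p = 0.118). The triglyceride lipase Pnpla2 rose (0.66, SE 0.18) with overlapping groups and was not called without control library 4 (adjusted p = 0.053), while Pparg, the master regulator of fat cells, did not pass (−0.51, adjusted p = 0.0545) and neither did lipoprotein lipase Lpl (0.21, adjusted p = 0.389). Pparg was called lower with voom (adjusted p = 0.0121), with the groups compared alone (0.00924) and without 2 control libraries of mice given no DT (0.035).

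Among ligands of the stem and B cell niche and their receptors, 5 of 22 fell, 4 rose and 13 did not pass (median 0.06), with 2 rises without control library 1. The ligands Cxcl12, Kitl, Il34 and Il7 and the erythropoietin receptor Epor (−1.72, SE 0.30) fell. Il7, which B cell precursors need, rested on few reads and overlapped (0.724 ± 0.0389 against 1.56 ± 0.867 CPM, adjusted p = 0.0376), and its call was lost without any 1 of the 4 DTRADQ libraries or without control library 1 or 4 (adjusted p from 0.0782 to 0.168) and with the replicate block (adjusted p = 0.0717). Cxcr4, a receptor for Cxcl12, was at 63.8 ± 6.74 against 71.7 ± 12.3 CPM and did not pass. Neither did Kit, the receptor for Kitl, at 35.2 ± 2.33 against 32.4 ± 4.03 CPM (log2 change 0.12, SE 0.14). Spp1, osteopontin, held 331, 301, 261 and 307 CPM in DTRADQ and 99.3, 86.2, 122 and 114 CPM in controls, higher in each DTRADQ library (1.51, SE 0.27).

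Genes of the actin cytoskeleton rose together. Of 25 contractile genes and targets of serum response factor (SRF) 19 rose, none fell and 6 did not pass (median 0.75), and all 25 had a positive log2 change. Acta2, smooth muscle actin, held 118, 125, 108 and 135 CPM in DTRADQ and 14.8, 17.2, 22.3 and 16.2 CPM in controls. The lowest DTRADQ library was far above the highest control (2.78, SE 0.36, adjusted p = 1.21e-06). Actg2, the gamma actin of smooth muscle, rose from 1.42 ± 0.529 to 15.9 ± 5.32 CPM (3.47, SE 0.34). Smaller rises were seen for tropomyosin Tpm1 (1.36, SE 0.15), caldesmon Cald1 (1.06, SE 0.13), the caveolar protein Cav1 (1.59, SE 0.30) and the focal adhesion proteins Zyx (0.75, SE 0.16) and Vcl (0.71, SE 0.19). Myh11, the myosin of mature smooth muscle, was at 0.815 ± 0.428 against 0.443 ± 0.197 CPM with overlapping groups and did not pass (adjusted p = 0.304), and Srf itself was at 0.28 (SE 0.22, adjusted p = 0.373).

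The CArG box is the site that SRF binds, and RefSeq promoters (GRCm38.p6, the 250 bases before the start) could be matched to 21 of the 25 genes. A CArG box on either strand was present in 5 of these 21, of which 3 had risen, and in 1.62% of the 27025 genes with a promoter in the table, where a gene with several starts counts once. The promoter of Vcl, the member with the smallest p-value that holds one, is shown with the box in capitals (chr14:20929148-20929397, strand +):
Vcl promoter: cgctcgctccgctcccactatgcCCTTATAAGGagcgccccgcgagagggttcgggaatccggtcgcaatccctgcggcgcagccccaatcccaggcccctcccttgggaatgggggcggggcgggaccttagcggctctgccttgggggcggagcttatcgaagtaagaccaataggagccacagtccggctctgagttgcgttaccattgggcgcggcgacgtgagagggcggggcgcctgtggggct
A match describes letters in this window and says nothing of binding. The list holds SRF targets by choice, so its share of boxes is no result about the rise. Most of its members rose (19 of 25), and a link between box and rise was not tested.

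Genes known to respond to mechanical and TGF-beta signals rose in part. Of 21 CCN, YAP and TGF-beta response genes 11 rose, 1 fell and 9 did not pass (median 0.66). Ccn2, connective tissue growth factor, held 14.01, 14.3, 10.8 and 16.4 CPM in DTRADQ and 0.726, 0.839, 1.31 and 0.777 CPM in controls (3.92, SE 0.38). Every DTRADQ library was above 10 CPM and no control library reached 2. Its relatives Ccn1 (4.15, SE 0.36) and Ccn4 (4.16, SE 0.42) rose too.

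Cthrc1, a secreted protein of matrix-forming fibroblasts, gave 56, 42, 27 and 76 reads in DTRADQ and 1, 1, 2 and 1 in controls (5.49, SE 0.63). It was close to absent in controls and present in each DTRADQ library. Of the ligands, Tgfb2 changed by 3.01 (SE 0.41) and Tgfb3 by 2.46 (SE 0.36), while Tgfb1 was at 2.89 ± 0.454 against 2.10 ± 0.293 CPM and did not pass (adjusted p = 0.475). Ltbp2, which binds microfibrils, was the member that fell (−1.90, SE 0.37), and the feedback inhibitor Smad7 did not pass (−0.20, SE 0.23).

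TEAD factors, the partners of YAP, recognise GGAATG. This motif, searched on both strands, was in the promoters of 4 of the 13 members with an entry and of 14.4% of all genes, and Ccn1 was the called member that holds it (chr3:145649986-145650235, strand -, motif in capitals on the opposite strand):
Ccn1 promoter: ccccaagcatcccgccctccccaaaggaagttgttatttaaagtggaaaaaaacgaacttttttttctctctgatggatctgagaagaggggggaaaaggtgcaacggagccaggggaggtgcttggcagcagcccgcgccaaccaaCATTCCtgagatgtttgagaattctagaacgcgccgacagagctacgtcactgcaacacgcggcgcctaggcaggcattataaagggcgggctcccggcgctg

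Most collagen chains rose as well. Of 17 collagen chains 11 rose, 1 fell and 5 did not pass (median 1.81). Col1a1, the main chain of bone and scar collagen, held 182, 171, 144 and 246 CPM in DTRADQ and 42.1, 29.1, 29.9 and 36.9 CPM in controls. The groups did not overlap, and DTRADQ library 4 was the highest (2.43, SE 0.49, adjusted p = 0.000446). Col12a1, a collagen of stressed tissue, rose by 2.70 (SE 0.29), Col6a3 by 2.50 (SE 0.29), Col8a1 by 2.37 (SE 0.29) and the basement membrane chain Col4a1 by 1.94 (SE 0.25). Col5a1 went the other way, from 16.5 ± 3.98 to 8.15 ± 0.919 CPM (−1.02, SE 0.24), although its partner chain Col5a2 rose by 2.11 (SE 0.32).

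The enzymes and chaperones that collagen needs rose in part. Of 18 processing and crosslinking genes 9 rose, none fell and 9 did not pass (median 0.75). Serpinh1, the collagen chaperone HSP47, held 90.6, 109, 93.5 and 120.3 CPM in DTRADQ and 21.1, 23.9, 25.3 and 21.2 CPM in controls (2.17, SE 0.23). It was higher in every DTRADQ library. The crosslinking oxidases Lox (1.98, SE 0.31) and Loxl2 (2.82, SE 0.37), the prolyl hydroxylase P4ha2 (2.64, SE 0.37) and the isomerase Fkbp10 (2.29, SE 0.35) rose.

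Of 23 matricellular proteins and matrix glycoproteins 12 rose, 4 fell and 7 did not pass (median 0.60). Postn, periostin, held 32.5, 30.6, 23.99 and 33.2 CPM in DTRADQ and 1.66, 2.60, 2.98 and 2.41 CPM in controls (3.64, SE 0.27). Thbs2 (3.38, SE 0.26), the collagen-binding Sparc (1.28, SE 0.22) and the proteoglycan Vcan (1.54, SE 0.32) rose too, Vcan without a call under the muscle covariate (adjusted p = 0.0516). The small leucine-rich proteoglycans Ogn (−1.69, SE 0.22), Dcn (−1.31, SE 0.21) and Omd (−1.26, SE 0.25) and the elastic fibre protein Fbln5 (−1.53, SE 0.17) fell. Bgn, a proteoglycan of the same family, rose (0.78, SE 0.21).

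Of 21 matrix proteases and their inhibitors 9 rose, 3 fell and 9 did not pass (median 0.66). The count of rises became 5 without control library 1 and 5 with a skeletal muscle covariate. Timp1, an inhibitor of metalloproteinases, held 21.2, 21.9, 14.7 and 28.8 CPM in DTRADQ and 1.02, 1.16, 1.17 and 0.859 CPM in controls (4.35, SE 0.39). Its DTRADQ values were at least 10 times those of the controls in every pairing of libraries. The aggrecanase Adamts5 fell (−1.75, SE 0.17) where Adamts1 rose (1.59, SE 0.26), and Timp4 gave 0, 4, 1 and 0 reads against 20, 13, 9 and 41.

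Skeletal muscle RNA moved with these groups and is given here because femoral marrow can carry adhering muscle. Of 15 tested muscle genes 13 rose (median 3.03), and their summed level was 135.9, 746.1, 137.0 and 307.9 CPM in DTRADQ libraries 1 to 4 and 69.75, 51.27, 34.05 and 42.9 CPM in controls. The summed collagen chains were 425.0, 416.0, 334.3 and 571.4 CPM against 129.6, 117.8, 117.5 and 138.0 CPM. Myl1, a fast muscle myosin light chain, held 12.3, 140.2, 19.96 and 48.05 CPM in DTRADQ and 4.65, 3.16, 0.0903 and 0.532 CPM in controls, and no muscle gene tested was at 0 in all control libraries. With the muscle level (the mean log2 CPM of the muscle genes) as a covariate 7 of the 17 collagen chains and 8 of the 28 endothelial genes rose, and Col1a1 was no longer called (1.26, adjusted p = 0.0542). Under the same covariate Tagln (5.55, adjusted p = 3.84e-12), Acta2 (3.02, adjusted p = 2.59e-05), Postn (3.41, adjusted p = 3.52e-08) and Serpinh1 (2.10, adjusted p = 7.57e-06) kept their calls. The summed muscle level did not overlap between the genotypes after 3 days of DT. Calls kept or lost under this covariate, here or in other paragraphs, therefore cannot tell muscle and genotype apart.

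**Figure D3:**
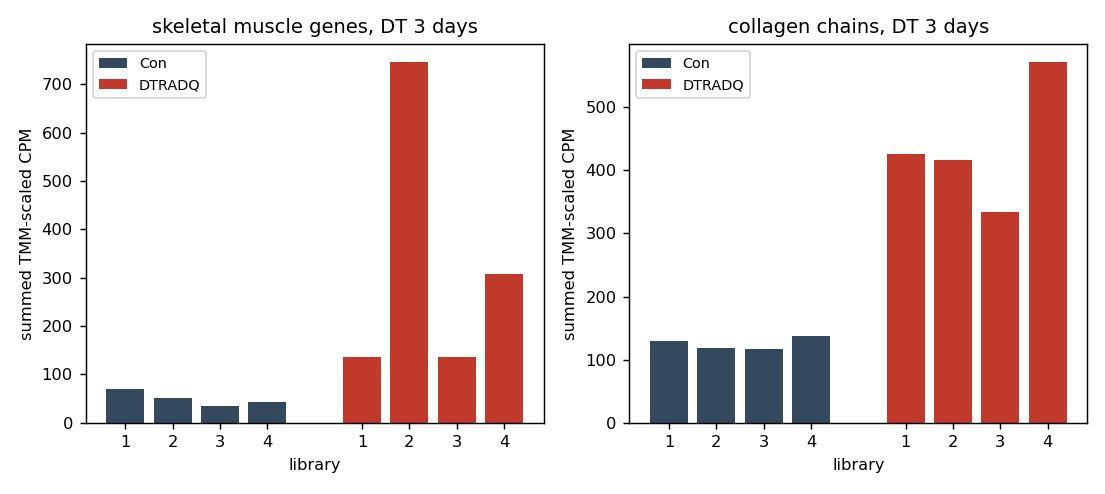
Summed TMM-scaled CPM of 15 skeletal muscle genes (left) and 17 collagen chains (right) in each control and DTRADQ library after 3 days of DT, with a bar for each library on axes from 0. Muscle RNA is highest in DTRADQ library 2 (746.1 CPM) and collagen RNA is highest in DTRADQ library 4 (571.4 CPM).

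Bone-forming genes showed no common direction. Of 18 osteoblast and osteocyte genes 4 rose, 4 fell and 10 did not pass (median 0.30), and the rises numbered 2 without DTRADQ library 2 and 1 with the muscle covariate. Tnfrsf11b, the decoy receptor osteoprotegerin that restrains osteoclasts, gave 154, 136, 94 and 243 reads in DTRADQ and 7, 0, 4 and 4 in controls (5.68, SE 0.61). Ibsp, bone sialoprotein, fell from 156 ± 38.9 to 61.5 ± 10.5 CPM (−1.35, SE 0.28). Runx2, the osteoblast regulator, was at 24.6 ± 1.44 against 26.03 ± 0.982 CPM and did not pass (−0.08, SE 0.15).

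Secreted regulators of BMP and WNT signals changed in both directions. Of 24 members tested 6 fell, 4 rose and 14 did not pass (median 0.03). The rises numbered 2 without control library 4 and 1 with the muscle covariate. Chrdl1, a BMP antagonist, held 0.327, 0.0554, 0.397 and 0.439 CPM in DTRADQ and 21.9, 19.5, 25.02 and 27.3 CPM in controls (−6.23, SE 0.31). Grem1, another BMP antagonist (−4.71, SE 0.40), the WNT inhibitor Sfrp4 (−4.54, SE 0.33) and Bmp6 (−3.48, SE 0.56), a ligand known for setting iron balance, fell. Dkk3 rose from 0.991 ± 0.171 to 4.61 ± 0.595 CPM (2.21, SE 0.31). Id1, a target of BMP signals, did not pass and was at 0.21 (SE 0.17).

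Osteoclast genes showed no common direction: of 13 tested 3 rose, 2 fell and 8 did not pass (median 0.31). The log2 change was positive in 8 and negative in 5. Acp5, the osteoclast acid phosphatase, held 41.4, 40.8, 47.3 and 52.2 CPM in DTRADQ and 74.2, 74.8, 90.6 and 94.1 CPM in controls, lower in all 4 (−0.88, SE 0.20). The other fall was Car2 (−1.71, SE 0.28), which red cell precursors make in quantity. Ctsk, the collagen-degrading protease of osteoclasts, was at 11.2 ± 3.38 against 12.4 ± 3.64 CPM and did not pass (adjusted p = 0.834).

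Vessel genes rose in part. Of 28 endothelial genes 15 rose, 2 fell and 11 did not pass (median 0.55), and with the muscle covariate 8 rose. Emcn, endomucin of sinusoids and capillaries, held 23.00, 22.2, 16.9 and 30.7 CPM in DTRADQ and 3.07, 5.48, 5.06 and 7.36 CPM in controls. Each DTRADQ library was more than 2 times the highest control (2.14, SE 0.25). Angpt2, a ligand of the TIE2 receptor, rose from 2.63 ± 0.591 to 20.8 ± 8.57 CPM (2.98, SE 0.35) and Apln, the ligand of the apelin receptor, from 0.429 ± 0.327 to 3.55 ± 1.34 CPM (3.03, SE 0.49). The pan-endothelial Pecam1, also present on platelets and leukocytes, rose by 0.88 (SE 0.18). The VEGF receptor Kdr (−0.35, SE 0.23) did not pass. Esm1, listed with endothelium and with stroma, fell (−5.42, SE 0.33), as did the adhesion molecule Sele (−1.44, SE 0.24).

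Of 16 vascular growth factors 7 rose, 2 fell and 7 did not pass (median 0.61), with 1 fall without DTRADQ library 1 or 3 or control library 1 or 3. Pdgfa, a mitogen of mesenchymal cells, rose from 2.46 ± 0.412 to 8.75 ± 1.55 CPM (1.83, SE 0.27), and Vegfc, the lymphatic and sinusoidal growth factor, fell from 2.31 ± 0.772 to 0.494 ± 0.0914 CPM (−2.20, SE 0.45). Vegfa did not pass (−0.16, SE 0.26). Of 8 pericyte genes 3 rose and 3 fell (median 0.31): the proteoglycan Cspg4 rose by 3.88 (SE 0.59), while the receptor Notch3 fell by 1.17 on the log2 scale (SE 0.29). The pericyte rises numbered 1 with the muscle covariate.

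Red cell genes fell in several groups. Of 24 red cell membrane and blood group genes 19 fell, none rose and 5 did not pass (median −1.64). Rhd, an Rh antigen, held 213, 180.1, 235 and 124 CPM in DTRADQ and 674, 772, 756 and 909.9 CPM in controls. All DTRADQ libraries were below 300 CPM and all controls above 600 (−2.05, SE 0.28, adjusted p = 2.98e-06). The anion exchanger Slc4a1 (−1.42, SE 0.23), protein 4.2 gene Epb42 (−1.61, SE 0.21) and the water channel Aqp1 (−2.36, SE 0.31) fell with it. Epb41, protein 4.1, was at 461 ± 72.2 against 341 ± 53.4 CPM and did not pass (0.43, adjusted p = 0.207), nor did Bpgm, which makes bisphosphoglycerate in late red cells (0.60, adjusted p = 0.114). Both were called higher with voom (Epb41 0.0396, Bpgm 0.00788 as adjusted p) and with the groups compared alone (0.0293 and 0.0111).

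Within heme synthesis the first enzyme and most of the later ones moved in opposite directions. Of 19 genes 12 fell, 2 rose and 5 did not pass (median −1.10). Alas2, the erythroid enzyme that starts the pathway, held 10257, 6675, 9685 and 8334 CPM in DTRADQ and 3527, 3398, 3298 and 4224 CPM in controls, higher in all 4 (1.27, SE 0.23, adjusted p = 0.000138). Enzymes of the later steps fell: Alad by 1.93, Uros by 1.81, Urod by 1.37, Cpox by 2.69 and Ppox by 1.00 on the log2 scale, with SE from 0.17 to 0.33. Cpox, which acts in mitochondria, held 27.3, 20.1, 27.5 and 19.04 CPM in DTRADQ and 164, 127, 123 and 194 CPM in controls. Fech, which inserts iron at the last step, did not pass (0.18, SE 0.29). The glycine importer Slc25a38 fell (−1.88, SE 0.25), while the mitochondrial carrier Slc25a39 rose (1.12, SE 0.24).

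**Figure D4:**
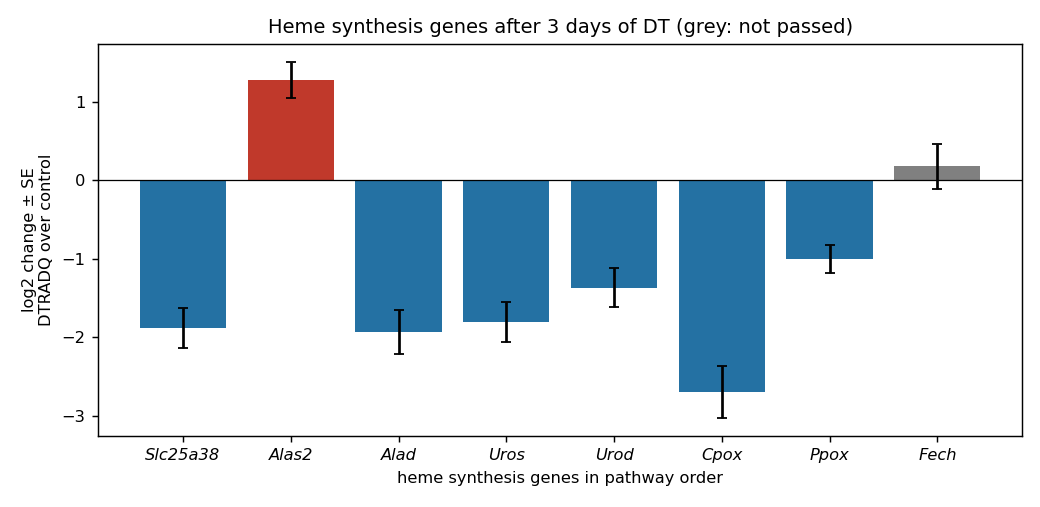
Log2 change of DTRADQ over control after 3 days of DT for the glycine importer and 7 enzymes of heme synthesis in pathway order, with error bars of 1 SE. Alas2 is above 0 (1.27), Alad, Uros, Urod, Cpox and Ppox lie between −1.0 and −2.69, and Fech is within its error of 0.

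Erythroid GATA factors recognise AGATAA. The motif was in the promoters of 1 of 15 heme genes with an entry, 4 of 16 membrane genes and 11.4% of all genes. Alas2, the heme gene that holds it, is shown with the motif in capitals on the opposite strand (chrX:150547167-150547416, strand +), since it rose while its pathway fell:
Alas2 promoter: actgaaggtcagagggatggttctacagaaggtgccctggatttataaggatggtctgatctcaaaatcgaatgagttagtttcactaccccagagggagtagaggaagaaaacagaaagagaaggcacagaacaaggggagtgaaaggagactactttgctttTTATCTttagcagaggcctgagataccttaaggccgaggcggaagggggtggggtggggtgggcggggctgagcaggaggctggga

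Globins rose or did not pass with 1 exception. Of 6 tested 3 rose and 1 fell (median 1.03), and with the muscle covariate the rises numbered 0 (adjusted p of 0.107 and 0.078 for the alpha globin genes). Hba-a1 (1.27, SE 0.33) and Hba-a2 (1.35, SE 0.33) share reads and are uncertain as single genes. Hbb-bs was at 0.93 (SE 0.35, adjusted p = 0.055) and did not pass. It was called with DESeq2 (0.96, adjusted p = 0.0129), its size factors, voom, the groups compared alone, without 2 control libraries of mice given no DT and without DTRADQ library 2 (adjusted p from 0.000297 to 0.0487). Hbq1b, which can share reads with Hbq1a, was the 1 that fell, and it was not called with the replicate block (−0.80, adjusted p = 0.054) or without any 1 library other than control library 3 (adjusted p from 0.0506 to 0.128).

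Of 19 genes of iron uptake, storage and export 6 fell, 1 rose and 12 did not pass (median −0.20). Beside Tfrc and Bmp6, the endosomal ferrireductase Steap3 (−1.36, SE 0.19) and the iron exporter of endosomes Slc11a2 (−1.19, SE 0.18) fell. Ftl1, ferritin light chain, rose (0.73, SE 0.20). The sensor Ireb2, which controls Tfrc RNA stability, did not pass (−0.20, SE 0.12).

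Of 23 erythroid regulators 16 fell, 2 rose and 5 did not pass (median −0.79). Klf1, the factor that drives adult red cell genes, held 8.39, 10.7, 11.8 and 6.30 CPM in DTRADQ and 41.2, 41.6, 45.7 and 51.6 CPM in controls, and no DTRADQ library came near the lowest control (−2.28, SE 0.39). Tal1 (−1.86, SE 0.27), Lmo2 (−1.59, SE 0.23) and Gata1 (−0.83, SE 0.15), partners in 1 DNA-binding complex, fell. Trib3, a stress-induced pseudokinase, rose (1.43, SE 0.38) but was not called with the muscle covariate (adjusted p = 0.0599).

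Cell division genes fell broadly. Of 36 DNA replication and nucleotide supply genes 32 fell and 4 did not pass (median −0.73), and all 36 had a negative log2 change. Ccne1, the cyclin of entry into S phase, held 7.30, 9.08, 9.06 and 7.03 CPM in DTRADQ and 24.8, 22.7, 25.1 and 31.1 CPM in controls (−1.68, SE 0.21). The groups were far apart. Orc1, which marks replication origins, fell by 1.34 (SE 0.19), Cdt1, which loads the helicase, by 1.32 (SE 0.27) and the clamp Pcna by 0.99 (SE 0.18) on the log2 scale. The helicase subunits Mcm5 (−0.40, SE 0.11) and Mcm2 (−0.96, SE 0.21) fell too, Mcm5 without a call under the muscle covariate (adjusted p = 0.0582) or with no filter on low counts (0.0724).

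Of 29 mitosis genes 25 fell and 4 did not pass (median −0.73), again with all log2 changes negative. Mki67, the proliferation antigen, held 286, 268, 280.3 and 229.9 CPM in DTRADQ and 655, 597, 582 and 791 CPM in controls. Every DTRADQ library was under 300 CPM and every control above 500 (−1.30, SE 0.18). The kinetochore gene Cenpf (−1.28, SE 0.18), cyclin Ccna2 (−1.24, SE 0.24) and survivin gene Birc5 (−1.05, SE 0.17) fell, while the kinase gene Plk1 did not pass (−0.37, SE 0.15) but was called lower with voom (adjusted p = 0.0198) and with the groups compared alone (0.0236).

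E2F factors time replication genes and were searched as TTTCCCGC, TTTCGCGC, TTTGCCGC and TTTGGCGC on both strands, which overlap in their shared letters. One of these was in 9 of the 30 replication promoters with an entry, all 9 of genes that fell, and in 2.16% of all genes. The CHR element TTTGAA of mitotic genes was in 9 of 24 mitosis promoters, all 9 of genes that fell, and in 18.3% of all genes. Most members of both lists fell (32 of 36 and 25 of 29), and a link between motif and fall was not tested. The members with the smallest p-value that hold each are shown with the motifs in capitals, Orc1 (chr4:108579204-108579453, strand +) and Mki67 (chr7:135716380-135716629, strand -):
Orc1 promoter: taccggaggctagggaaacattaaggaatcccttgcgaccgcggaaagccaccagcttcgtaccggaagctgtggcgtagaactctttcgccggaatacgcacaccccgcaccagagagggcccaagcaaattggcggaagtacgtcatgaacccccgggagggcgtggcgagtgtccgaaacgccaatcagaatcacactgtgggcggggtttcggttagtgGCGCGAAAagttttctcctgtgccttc
Mki67 promoter: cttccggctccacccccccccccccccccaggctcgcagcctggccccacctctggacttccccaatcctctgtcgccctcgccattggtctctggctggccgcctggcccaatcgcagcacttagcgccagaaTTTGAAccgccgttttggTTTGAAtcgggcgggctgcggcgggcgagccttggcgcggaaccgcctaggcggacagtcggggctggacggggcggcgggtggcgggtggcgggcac
The Orc1 motif lies on the opposite strand 19 bases before the start, and Mki67 holds 2 copies.

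Cell cycle inhibitors gave no common direction. Of 19 inhibitors and p53 targets 4 rose, 3 fell and 12 did not pass (median −0.07). Cdkn1c, p57, which is known in stem and stromal cells, fell from 2.74 ± 0.418 to 0.656 ± 0.0925 CPM (−2.06, SE 0.32), and Cdkn2c, p18, fell by 1.13 on the log2 scale (SE 0.20). The rises numbered between 0 and 2 without DTRADQ library 2 or 3 or without control library 1, 2 or 4.

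Some genes of late granulocytes rose. Of 27 late granule and mature neutrophil genes 10 rose, none fell and 17 did not pass (median 0.67), a count that became 6 without DTRADQ library 2, 6 without control library 1 and 4 without control library 4. Stfa2l1, a cystatin of neutrophils, held 62.8, 52.3, 52.4 and 45.5 CPM in DTRADQ and 22.5, 21.1, 25.3 and 16.3 CPM in controls, higher in each (1.32, SE 0.25). Padi4, which citrullinates histones, rose by 0.89 (SE 0.22). Of 13 primary granule genes of promyelocytes 1 rose, though not without DTRADQ library 2 or control library 4, and 1 fell (median −0.20), with elastase gene Elane at 1003 ± 149 against 1249 ± 293 CPM and not passed (−0.32, adjusted p = 0.29).

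Eosinophil genes rose in part. Of 21 eosinophil, basophil and mast cell genes 10 rose, none fell and 11 did not pass (median 0.53), and 5 rose without control library 4. Epx, eosinophil peroxidase, held 456, 409, 794 and 773 CPM in DTRADQ and 255, 249, 248 and 166 CPM in controls. DTRADQ libraries 3 and 4 were the highest, and control library 4 the lowest (1.41, SE 0.32). The granule protein Prg2 (1.11, SE 0.27) was likewise highest in DTRADQ libraries 3 and 4 and lowest in control library 4, and Ear2 and Ear6, which share reads with their relatives, rose as well.

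Of 25 monocyte and dendritic cell genes 5 fell, 1 rose and 19 did not pass (median 0.03), and 2 fell with the muscle covariate. The 1 rise was lost without DTRADQ library 1, 2 or 4 or control library 1, 2 or 4. Cx3cr1, the fractalkine receptor of patrolling monocytes, held 16.7, 24.6, 17.5 and 20.1 CPM in DTRADQ and 39.7, 48.2, 46.9 and 43.1 CPM in controls, lower in every library (−1.17, SE 0.24) but not called with the muscle covariate (adjusted p = 0.0581). Zbtb46, of dendritic cells and their precursors, fell by 1.04 on the log2 scale (SE 0.20). Of 23 macrophage genes 4 rose and 1 fell (median 0.21), with 2 rises without control library 3 or 4. Vsig4, a complement receptor of resident macrophages, held 10.4, 7.15, 8.06 and 10.6 CPM in DTRADQ and 1.37, 1.80, 0.858 and 0.859 CPM in controls (2.88, SE 0.42). The 1 that fell, Marco, held 65.02 CPM in control library 3 and at most 2.78 CPM elsewhere, and it was not called without that library (−1.04, adjusted p = 0.35) or with the replicate block (−2.42, adjusted p = 0.0898).

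Of 23 chemokines and receptors 7 rose, 2 fell and 14 did not pass (median 0.31), with 4 rises without DTRADQ library 4 or without control library 4 and 3 with the muscle covariate. Ccl7, a ligand for monocytes, held 10.6, 7.37, 7.87 and 13.9 CPM in DTRADQ and 0.683, 0.200, 2.39 and 1.39 CPM in controls (3.10, SE 0.37). Ccl2 rose too, with control library 3 the highest of its group (2.73, 3.44, 8.58 and 2.54 CPM in controls and 23.1, 20.2, 12.1 and 32.4 CPM in DTRADQ). Cxcl14, made by stromal cells, fell from 4.25 ± 0.473 to 0.437 ± 0.364 CPM (−3.21, SE 0.40).

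Among 28 B lineage genes 3 fell, 3 rose and 22 did not pass (median 0.09), shares near those over all genes, and no difference between stages was tested. The 3 that fell are known from B cell precursors: Vpreb1, of the surrogate light chain, held 5.23, 4.21, 4.96 and 4.20 CPM in DTRADQ and 17.03, 12.6, 12.3 and 22.99 CPM in controls (−1.80, SE 0.30), Dntt, terminal transferase, fell by 1.61 (SE 0.27) and Igll1 by 1.13 (SE 0.23) on the log2 scale. Ms4a1, CD20 of mature B cells, rose with overlapping groups (0.98, SE 0.27), but none of the 3 rises was called without DTRADQ library 4 (Ms4a1 0.68, adjusted p = 0.0734). Of 26 T and NK cell genes 8 rose, none fell and 18 did not pass (median 0.29), with 5 rises without DTRADQ library 4 or without control library 4. Prf1, perforin of cytotoxic cells, rose from 3.21 ± 0.971 to 8.86 ± 1.95 CPM (1.47, SE 0.29) and the NK receptor Klrb1c by 1.01 (SE 0.18), while Cd3e of T cells did not pass (7.59 ± 2.04 against 8.75 ± 1.67 CPM).

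Of 21 megakaryocyte and platelet genes 9 rose and 1 fell (median 0.45), but 3 rose without control library 1 and the fall was lost without any 1 library. Itga2b, the platelet integrin, held 128, 155, 157 and 153 CPM in DTRADQ and 58.3, 99.5, 86.2 and 87.7 CPM in controls (0.84, SE 0.19). Stem and progenitor genes, 24 in all, rose in 5 and fell in 4 cases (median 0.23), 2 falling without DTRADQ library 2 or control library 4. Slamf1, CD150 of stem cells and megakaryocyte precursors, rose from 20.7 ± 1.95 to 42.5 ± 2.84 CPM (1.04, SE 0.26).

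Of 23 interferon response genes 7 rose and 1 fell (median 0.39), with 3 rises without control library 1 or 4 and 4 without DTRADQ library 2, 3 or 4. Oas2, an antiviral synthetase, rose by 1.42 (SE 0.30), whereas Cmpk2, a mitochondrial nucleotide kinase, fell by 0.77 on the log2 scale (SE 0.16). Of 37 cytosolic ribosomal protein genes 6 fell and 31 did not pass (median −0.37), and 34 had a negative log2 change. The falls numbered 0 to 2 without DTRADQ library 2, 3 or 4 or control library 4 and 13 with the muscle covariate. Of 25 glucocorticoid response and clock genes 5 rose and 2 fell (median −0.06), with 3 rises without control library 1, 2 or 4. The metallothionein gene Mt2 fell from 8.05 ± 2.35 to 1.54 ± 0.600 CPM (−2.38, SE 0.50).

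The series also lets the effect after 3 days of DT be set against that after 2 days. The genotype effect at day 3 minus that at day 2 had a median of −0.016 over all genes. At an adjusted p below 0.05 it was positive for 54 genes (0.372% of 14527) and negative for 144 (0.991%). The labels give lane 8 for the day 3 libraries and name no lane for those of day 2. A lane difference between days therefore cannot be told apart from the day. Depth differed as well, at 15.74 to 22.93 M counts per library at day 3 and 11.54 to 14.46 M at day 2. The part of depth in the differences was not tested. The genotypes are compared within each day. Counts of this difference vary widely with the processing: with the muscle covariate 3 positive and 8 negative genes passed, and of the genes named below Thbs2 alone was among them. Without DTRADQ library 4 of day 3 the counts were 19 and 40, and without DTRADQ library 1 of day 2 they were 17 and 42.

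Red cell membrane genes make up part of the negative differences. Of 24 members 16 had a negative difference that was called, and no positive difference was called (median −1.34). At day 2 Rhag, of the Rh complex, averaged 449 ± 182 CPM with Cre and 463 ± 98.6 CPM without, and at day 3 123 ± 31.9 and 443 ± 56.4 CPM, a difference of −1.80 (SE 0.37, adjusted p = 0.00992). Xpo7, an exporter of red cell precursors, differed by −1.91 (SE 0.36). At day 2 the median genotype ratio of the list was near 0 (log2 −0.08), and at day 3 it was −1.64. Tfrc went from 262 ± 129 against 388 ± 60.2 CPM at day 2 to the values above (−1.57, SE 0.36, adjusted p = 0.0252), a call lost with the replicate block (−1.44, adjusted p = 0.0987), without DTRADQ library 2 or 4 or control library 4 of day 3 and without DTRADQ library 1 or 4 or control library 1 or 2 of day 2. In heme synthesis Alas2 was already higher at day 2, at 9527 ± 2289 against 3817 ± 789.6 CPM.

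**Figure D5:**
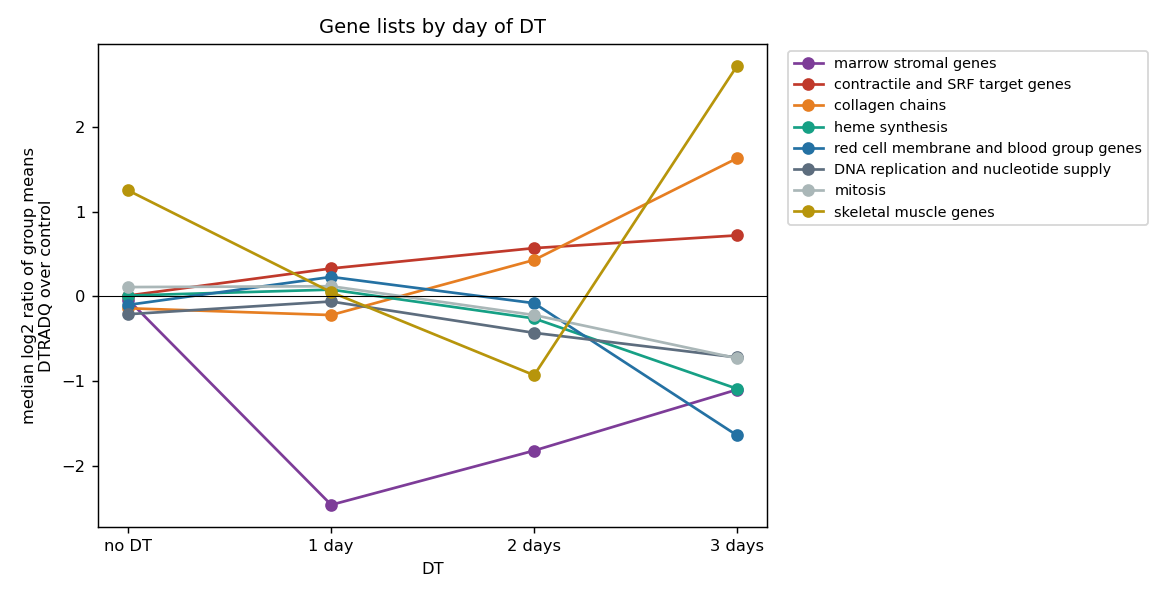
Median log2 ratio of group means, DTRADQ over control, with 0.1 CPM added, for 8 gene lists without DT and after 1, 2 and 3 days. The red cell membrane list is at −0.08 on day 2 and −1.64 on day 3, and the collagen list at 0.43 and 1.63.

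Matrix genes make up part of the positive differences. Lox had a difference of 2.43 (SE 0.45), Thbs2 of 2.66 (SE 0.38) and Serpinh1 of 1.57 (SE 0.31). Of 17 collagen chains 3 passed (median 1.22), of 18 processing genes 2 (median 1.02) and of 23 matrix glycoproteins 5 (median 0.47). Thbs2 was at 2.48 ± 1.26 against 1.52 ± 0.307 CPM at day 2. Ccn1, by contrast, was already at 10.99 ± 1.08 against 0.635 ± 0.311 CPM at day 2 and its difference did not pass (0.05, SE 0.59). Skeletal muscle genes moved with them, with 6 of 15 called positive (median 4.06). With the muscle covariate Lox (1.64, adjusted p = 0.12) and Serpinh1 (1.47, adjusted p = 0.0898) did not pass while Thbs2 did (2.48, adjusted p = 0.0275). The summed muscle level was 48.74, 174.1, 48.18 and 47.97 CPM in the day 2 controls. Without control library 2 of day 2 the difference of Myl1 went from 6.65 to 4.24 (adjusted p = 0.363). In mice given no DT the level also varied, from 38.11 to 391.7 CPM in DTRADQ and from 44.72 to 164.2 CPM in controls.

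Some stromal genes had a higher genotype ratio at day 3 than at day 2. Of 30 members 4 had a positive difference that was called, and no negative difference was called (median 0.22). Pdgfra, a receptor of stromal progenitors, was at 0.726 ± 0.417 against 3.77 ± 0.339 CPM at day 2 and at 1.53 ± 0.264 against 2.60 ± 0.272 CPM at day 3 (1.58, SE 0.40). Pdgfrb (1.32, SE 0.22), Fstl1 (1.17, SE 0.25) and Ccn5 (1.61, SE 0.38) passed with it. The differences of Pdgfra and Ccn5 were not called without DTRADQ library 4 (adjusted p of 0.103 and 0.0635), among other single libraries. Cxcl12, Lepr, Kitl and Adipoq did not pass, with differences of −0.49 (SE 0.25), −0.05 (SE 0.35), −0.39 (SE 0.28) and 0.12 (SE 0.68).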

How the data were processed

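Total RNA of femoral marrow was amplified with a SMARTer kit and sequenced. Named in the submitters' processing notes are STAR 2.0.4b, featureCounts 1.45 of Subread, bcl2fastq and GRCm38. The sources used here do not give the annotation release, strand setting or treatment of multimapped reads. The deposited tables hold raw read counts per gene, and the CPM and RPKM columns are the authors' own, per the file headers, and equal the counts rescaled by total and gene length within 4.4e-10 and, relatively, 3.9e-14. Of 41388 genes 97.26% had a symbol.

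Counts of all 32 libraries were filtered with filterByExpr (minimum count 10), scaled by TMM and fitted with edgeR 4.0.16 in R 4.3.3, with 1 coefficient per group and the quasi-likelihood test, adjusted by Benjamini-Hochberg, and tested on simulated data. Alternatives were DESeq2 1.42.0, its size factors, no filter, voom (limma 3.58.1) with library weights, a skeletal muscle covariate, the groups compared alone, a replicate block, and the loss of any 1 library. Same-numbered libraries of day 3 deviated together weakly (r = 0.175, 0.152, 0.142 and 0.174), although DTRADQ library 2 and control library 3 had a higher r (0.23). The labels give no pairing. Libraries were left unpaired in the main fit, and pairing by number was used only in the replicate block. Libraries of a group differed by more than sampling noise (at least 12.112 chi-square per gene). Whether each came from a separate mouse is not given in the sources used here.

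The comparison and the 45 gene lists were chosen with earlier results of these data known. Genes are named where they were among the 15 largest rises or falls, had 1 of the smallest p-values in a list, were named in the lists, or had a large difference between days, which 463 genes met, and 27 others were chosen after their values were seen. Values after ± are SDs over 4 libraries. Intervals cover counting error only. Some genes of these lists are counted but not reported by name here.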

Additional observations from a re-analysis of the deposited data

Results flagged for a closer look

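Libraries that stood apart from the other 3 of their group were looked for in 169 genes named in the text, which makes 338 groups of 4 examined. In 23 of them (6.80%) the gap to the nearest library passed Dixon's 95% limit as a share of the group's range, where chance gives about 1 in 20.

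Control library 4 stood apart in 7 genes. It was the lowest control for Epx (166 CPM) and the highest for Il34 (10 CPM), Xpo7 (455 CPM), Orc1 (37.2 CPM), Cdt1 (36.9 CPM), Ltbp2 (8.34 CPM) and Dntt (51.6 CPM). Control library 3 was the highest control for Marco (65.0 CPM), Ccl2 (8.58 CPM), Pdgfa (3.07 CPM) and Cthrc1 (0.0903 CPM, 2 reads) and the lowest for Cdkn1c (2.12 CPM). Control library 1 was high in Cxcr4 (90.0 CPM) and low in Slamf1 (17.8 CPM), and control library 2 was high in Smad7 (3.28 CPM).

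Among DTRADQ libraries, library 4 was low in Alad (59.6 CPM), Aqp1 (16.9 CPM) and Mcm5 (110 CPM) and high in Cxcl14 (0.977 CPM) and Cfd (0.0488 CPM, its 1 read). Library 1 was low in Itga2b (128 CPM) and high in Adamts5 (6.10 CPM), and library 2 was low in Igll1 (21.8 CPM).

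Genes whose genotype effect differed between 3 and 2 days of DT, by edgeR's quasi-likelihood test of the difference, included red cell genes. Their differences on the log2 scale were −1.80 for Rhag, −1.72 for Epb42, −1.60 for Slc4a1, −1.56 for Rhd, −1.61 for Car2, −1.91 for Xpo7 and −1.57 for Tfrc. The mitosis genes Mki67 (−0.95) and Cenpf (−0.93) and the fatty acid transporter Cd36 (−1.58) were negative as well. Positive differences were found for the matrix genes Cthrc1 (4.94), Thbs2 (2.66), Lox (2.43), Dkk3 (2.16), Col5a2 (1.78), Serpinh1 (1.57), Postn (1.5), Sparc (1.29) and Bgn (1.24) and for Tagln (1.75). The stromal genes Ccn5 (1.61), Pdgfra (1.58), Pdgfrb (1.32) and Fstl1 (1.17) and the muscle gene Myl1 (6.65) were positive too. The calls of Rhag, Epb42, Slc4a1, Xpo7, Lox, Thbs2, Serpinh1, Pdgfrb and Fstl1 held without any 1 library of either day, and each other gene of this paragraph lost its call without at least 1. Mki67 was not called without any 1 of the day 3 libraries and Cenpf in the same way except without control library 3. Cd36 was not called without DTRADQ library 2 or 4 or control library 4 of day 3. With the replicate block the calls of Rhd, Car2, Tfrc, Cd36, Mki67, Cenpf, Col5a2, Dkk3, Postn, Ccn5, Pdgfra and Myl1 were lost (adjusted p from 0.0641 to 0.163).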

How the results depend on the processing

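Counts of called genes depend on how the spread is estimated. The main fit takes the spread of each gene from all 32 libraries, among them control libraries 3 and 4 of the mice given no DT. They held the fewest counts in the series (9.49 and 8.97 M). Their shares in the 10 leading genes (37.41% and 50.69%) and in globin genes (19.67% and 26.39%) were the largest. Against 3330 genes after 3 days of DT (1279 higher), voom with library weights called 5724 (2541 higher, 3183 lower), a fit of the day 3 groups alone 5138 (2254 higher), and a fit without control libraries 3 and 4 of the mice given no DT, chosen after seeing the data, 5023 (2294 higher). Leaving out 1 library of day 3 gave 2258 to 3144 genes, of which 754 to 1354 were higher and 1475 to 1921 lower, each lowest without control library 4 except the lower genes, lowest without DTRADQ library 2.

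The difference between days was less stable. Against 198 genes (54 positive, 144 negative), DESeq2 called 338 (94 and 244), voom 707 (231 and 476), the groups compared alone 445 (135 and 310), the fit without the 2 control libraries 475 (130 and 345) and the muscle covariate 11 (3 and 8). Leaving out 1 library gave 59 to 318 (17 to 61 and 40 to 257).

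With the replicate block 3154 genes were called after 3 days of DT (1249 higher, 1905 lower), and of the genes named Il7, Marco and Hbq1b lost their call and no other did. For the difference between days the block gave 70 genes (27 and 43), where same-numbered day 2 libraries did not deviate together (r from −0.3 to 0.182).

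Direction turned with the muscle covariate for Myl1 (−0.06, and −0.05 for the difference between days), Cxcr4 (0.17), Tgfb1 (−0.21), Cd3e (0.05), Srf (−0.10) and Fech (−0.12), and, when 1 library was left out, for Ctsk without DTRADQ library 3 (0.05) or control library 3 (0.06, range −0.29 to 0.06) and for Cd3e without DTRADQ library 1 (range −0.35 to 0.00). Myl1 is itself part of the covariate, so its value there is not informative, and for the others the cause was not tested. Low-count genes are limited by depth.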

Other observations

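Tissues that can adhere to marrow other than muscle were barely measured. Of 4 tested Schwann cell, cartilage and tendon genes 2 rose, among them Col2a1 of cartilage (3.62, SE 0.54), and S100b fell (−1.41, SE 0.27).

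Of 32 nuclear genes of the respiratory chain 1 fell and none rose (median −0.18), and 31 had a negative log2 change. The fall was not called without DTRADQ library 3. Of 13 listed genes of the mitochondrial genome 8 were tested and none passed (median −0.02). Their summed TMM-scaled CPM overlapped, at 8235 to 9464 in DTRADQ and 8135 to 9439 in controls. The shares given near the start are of raw counts over all genes of that genome. Among 25 cholesterol and fatty acid genes 7 rose and none fell (median 0.35), where 8.8% of all genes rose. Of 25 glycolysis and hypoxia genes 5 rose and none fell (median 0.39), but 1 without control library 4, and adrenomedullin gene Adm held 3.98, 3.82, 2.51 and 5.42 CPM in DTRADQ and 0.683, 0.440, 0.316 and 0.532 CPM in controls. Immediate early genes rose in 3 of 21 (median 0.26) and in 0 or 1 without DTRADQ library 1, 2 or 4 or control library 1, 2 or 4. Of 22 stress response genes 4 rose and 1 fell (median 0.25), with 1 or 2 rises without DTRADQ library 2 or control library 2 or 4 and no fall without DTRADQ library 2, 3 or 4 or control library 2 or 3, and of 17 cytokine and acute inflammation genes 3 rose and 1 fell (median 0.28).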
